A study of Homo sapiens with 9 samples.

Results

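The genes described here encode the subunits of the respiratory chain and ATP synthase, the protein complexes of the inner mitochondrial membrane that carry out oxidative phosphorylation. Members were the genes listed on the mitochondrial chromosome (chrM), together with nuclear genes whose symbols begin with NDUFA, NDUFB, NDUFC, NDUFS or NDUFV and a digit, are SDHA to SDHD, or begin with UQCR, with COX4 to COX8, or with ATP5. By this rule, 97 of the 16008 genes listed in both count tables were members, 13 on chrM and 84 in the nucleus. RNA-Seq was performed on PC3 xenografts, which are subcutaneous tumors of a human prostate cancer line, grown in male NSG mice and harvested at the experimental endpoint. NSG mice lack T, B and NK cells but keep myeloid cells, fibroblasts and muscle. The 9 libraries were titled PBS (3, vehicle control), P-DXd (3) and T-DXd (3). Patritumab deruxtecan (P-DXd) binds HER3 and trastuzumab deruxtecan (T-DXd) binds HER2, and both release a topoisomerase I inhibitor. Each conjugate was given at 5 mg/kg by weekly retro-orbital injection, and the record of the series differs from the methods of the study in mouse age (11 weeks in the record), tumor volume at first dose and number of cycles. The titles and the treatment fields of the records name opposite conjugates for all 6 treated libraries. Treated groups are therefore named by title, with the conjugate given to each left unresolved.

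Electrons from NADH enter the chain at complex I (NADH dehydrogenase) and those from succinate at complex II (succinate dehydrogenase). They pass through ubiquinone, complex III and cytochrome c to complex IV (cytochrome c oxidase), which reduces oxygen. The proton gradient built by complexes I, III and IV drives complex V, the ATP synthase. The subunits come from separate genomes. Mitochondrial DNA encodes a set of hydrophobic core subunits of complexes I, III, IV and V, its transcripts are cut from long precursors that cover most of each strand, and complex II is encoded by the nucleus alone. The remaining subunits are transcribed from single nuclear genes and imported. Of the chrM members, 7 belong to complex I, 1 to complex III, 3 to complex IV and 2 to complex V. Of the nuclear members, grouped by symbol, 39 belong to complex I, 4 to complex II, 8 to complex III, 14 to complex IV and 19 to complex V. A few nuclear members carry such a symbol without being standard subunits: NDUFA4 is now assigned to complex IV, ATP5S and ATP5SL are assembly or coupling factors, NDUFC2-KCTD14 and ATP5J2-PTCD1 are readthrough genes, and COX6A1P2 and ATP5EP2 are copies of COX6A1 and ATP5E.

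The chrM genes were listed at the positions they have in the GRCh38 annotation (GENCODE v44), which was checked for all 13, so their sequence could be read. Some of them end without a full stop codon in the DNA, and the stop is completed by the poly(A) tail. The ends of the 3 chrM genes that differed most from PBS and of the 3 that did not pass the test in treated against PBS xenografts are shown because changes are set beside the form of the end further on. Each is the last 24 bases of the coding sequence in GRCh38, 5′ to 3′ on the coding strand, which is the plus strand except for MT-ND6, with the final complete or incomplete codon in capitals.
MT-ND3, chrM:10381-10404: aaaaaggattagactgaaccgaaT
MT-ND2, chrM:5488-5511: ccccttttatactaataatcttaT
MT-ND6, minus strand, chrM:14149-14172: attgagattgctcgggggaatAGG
MT-CO1, chrM:7422-7445: gaacccgtatacataaaatctAGA
MT-CO2, chrM:8246-8269: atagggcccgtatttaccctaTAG
MT-ND5, chrM:14125-14148: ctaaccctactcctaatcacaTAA

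Library totals ran from 54481702 to 125538606 counts, with the PBS libraries deepest. The epithelial marker KRT8 was at 407 CPM or more in every library, where CPM is counts scaled to TMM-adjusted library size. The 8 markers expected in PC3 cells summed to 9104 to 11794 CPM in PBS and 7746 to 8772 CPM in treated libraries. Of these, 2 were called higher and 2 lower in treated xenografts. The 6 markers expected to be low or absent summed to 56.5 to 74.6 CPM in PBS and 108 to 131 CPM in treated libraries. Of 5 of these tested, 2 were called higher and 0 lower. Mouse reads that align to human genes cannot be told apart from tumor reads in these counts. The summed level of 15 skeletal muscle markers was 15.2 to 70.9 CPM in PBS libraries, 5033 CPM in P-DXd-titled replicate 2 and 122 to 330 CPM in the other 5 treated libraries. The 7 macrophage markers listed summed to 7.82 to 10.02 CPM in PBS and 19.4 to 40.3 CPM in treated libraries, with the defining marker CD68 at 0.122 CPM or less in every library. The 11 fibroblast markers listed summed to 1105 to 2140 CPM in PBS and 1277 to 2296 CPM in treated libraries, with DCN at 1.01 CPM or less. In treated against PBS xenografts, called as described below, 14 of 15 skeletal muscle, 5 of 6 macrophage and 5 of 10 fibroblast markers tested were higher and 0, 1 and 0 lower. The median log2 fold change over the fibroblast markers tested was 0.74 for all treated libraries, 0.73 under the P-DXd title and 0.77 under the T-DXd title. Of all 15070 genes tested in treated against PBS xenografts, 15.2% were called higher and 17.1% lower, beside the marker counts above. The part of host cells in the results below was not tested.

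The first question was how much of each library the respiratory chain genes took up. The 13 chrM genes held 2.06%, 1.65% and 1.298% of the counts in PBS replicates 1 to 3. In the same order of replicates, they held 2.17%, 1.81% and 2.75% of the P-DXd-titled and 2.65%, 2.55% and 3.57% of the T-DXd-titled libraries. All T-DXd-titled libraries lay above all PBS libraries, whereas P-DXd-titled replicate 2 lay within the PBS range. P-DXd-titled replicate 2, the library with the most skeletal muscle RNA, also had the lowest chrM share of the treated libraries. The part of muscle in the chrM share was not tested. The 84 nuclear genes together held 0.836 ± 0.067% of the counts in PBS (SD, n = 3), 0.811 ± 0.035% for the P-DXd title and 0.807 ± 0.037% for the T-DXd title, and the 3 groups overlapped. Counts on chrM exceeded nuclear subunit counts by ratios of 2.25, 2.06 and 1.64 (PBS), 2.70, 2.13 and 3.53 (P-DXd-titled) and 3.46, 3.11 and 4.26 (T-DXd-titled). In bulk tumors, a change in the number of cells of a type cannot be told apart from a change in RNA per cell.

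**Figure D1:**
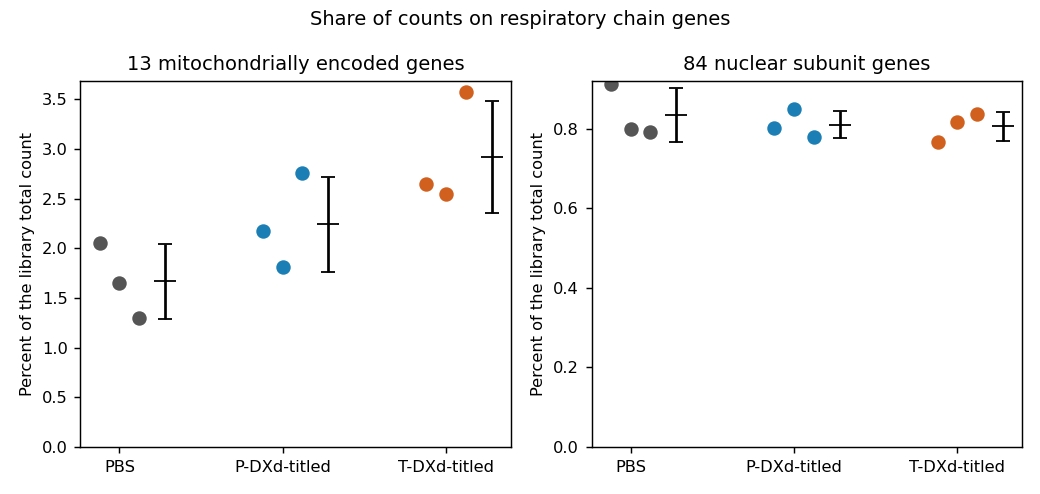
Percent of the total count of each library on the 13 chrM genes (left) and on the 84 nuclear subunit genes (right), with 1 point per library and, beside each group, the mean with SD (n = 3). The chrM share runs from 1.298% to 2.06% in PBS and from 2.55% to 3.57% in T-DXd-titled libraries, while the nuclear share lies between 0.766% and 0.913% in all 9 libraries.

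The next question was which genes carried this difference. Calls required 1.5-fold or more and an adjusted p (edgeR quasi-likelihood test, Benjamini-Hochberg over all genes tested) no higher than 0.05. In the 6 treated libraries together against PBS, 10 of 13 chrM genes were called higher and 0 lower, where 15.2% of all 15070 genes tested were called higher and 17.1% lower. Of 81 nuclear members tested, 1 was called higher and 3 lower. The median log2 fold change was 0.74 over the chrM genes and 0.04 over the nuclear members, beside -0.01 over all genes tested. In P-DXd-titled against PBS xenografts, 4 chrM genes were called higher and 0 lower (background 11.2% higher and 13.8% lower), with a median log2 fold change of 0.57 over chrM genes and 0.03 over 81 nuclear members. In T-DXd-titled against PBS xenografts, 11 chrM genes were called higher and 0 lower (background 13.1% and 15.5%), with medians of 0.90 and 0.03 over 80 nuclear members. Both comparisons use the same PBS libraries. The P-DXd-titled count depended on single libraries: without PBS replicate 1, 10 chrM genes were called, and without PBS replicate 2 or 3 or without P-DXd-titled replicate 1 or 3, 2 genes were called. Without T-DXd-titled replicate 3 the T-DXd-titled count was 6, and without PBS replicate 3 the count for all treated libraries was 6. When both PBS replicate 1 and P-DXd-titled replicate 2 were left out, all 13 chrM genes were called higher in treated xenografts.

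Complex I genes of chrM encode membrane arm subunits ND1 to ND6 and ND4L. MT-ND3 (ENSG00000198840.2, chrM:10059-10404) was 272, 382 and 402 CPM in PBS libraries (replicates 1 to 3), 989, 824 and 1435 CPM in P-DXd-titled and 1196, 1207 and 2010 CPM in T-DXd-titled libraries. Every treated library was above every PBS library, and the log2 fold change was 1.86 (SE 0.27, adjusted p 0.000222) for all treated libraries, 1.63 under the P-DXd title and 2.07 under the T-DXd title. MT-ND2 (ENSG00000198763.3) was 992, 1147 and 941 CPM in PBS, 2167, 1716 and 2819 CPM in P-DXd-titled and 2592, 2408 and 3832 CPM in T-DXd-titled libraries, again without overlap (log2 fold change 1.33, SE 0.22, adjusted p 0.000472). These were the only chrM genes called in every alternative of all 3 comparisons with PBS. MT-ND1 was 979 to 1371 CPM in PBS and 1468 to 2893 CPM in treated libraries, which did not overlap (log2 fold change 0.78, SE 0.20). MT-ND4 was 2856, 2365 and 1760 CPM in PBS, 3291, 2730 and 4224 CPM in P-DXd-titled and 3869, 3815 and 5349 CPM in T-DXd-titled libraries, so that P-DXd-titled replicate 2 fell within the PBS range (log2 fold change 0.74, SE 0.21, adjusted p 0.0114). MT-ND4L, which shares 7 bases with MT-ND4, was 338, 290 and 223 CPM in PBS and 304 to 557 CPM in treated libraries (log2 difference 0.60, SE 0.18, adjusted p 0.0170). MT-ND5 was 935, 745 and 602 CPM in PBS and 750 to 1559 CPM in treated libraries, and it missed the threshold (log2 fold change 0.55, SE 0.22, adjusted p 0.0502). MT-ND6, on the opposite strand to the other chrM genes, was 219, 156 and 130 CPM in PBS, 227, 197 and 351 CPM in P-DXd-titled and 337, 345 and 480 CPM in T-DXd-titled libraries (log2 fold change 0.94, SE 0.27, adjusted p 0.0126). The methods do not say whether strand was used in counting, so reads of MT-ND6 and reads from the other strand across it cannot be told apart.

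In complex III, MT-CYB (cytochrome b) was 1005, 1013 and 814 CPM in PBS, 1406, 1260 and 1951 CPM in P-DXd-titled and 1771, 1576 and 2411 CPM in T-DXd-titled libraries. No treated library overlapped with PBS, and MT-CYB was called in both treated groups (log2 fold change 0.72, SE 0.18, adjusted p 0.0234, and 1.03, SE 0.18, adjusted p 0.00525). The complex IV genes encode the catalytic core of cytochrome c oxidase and behaved less alike. MT-CO1 (ENSG00000198804.2), the most abundant chrM gene, was 8049, 4889 and 3716 CPM in PBS, 5462, 4311 and 6652 CPM in P-DXd-titled and 6376, 6312 and 8363 CPM in T-DXd-titled libraries. The groups overlapped, and the log2 fold change was 0.17 (SE 0.24, adjusted p 0.570) for all treated libraries, with -0.0047 for P-DXd-titled and 0.34 for T-DXd-titled xenografts. The value for all treated libraries was 0.55 without PBS replicate 1 and -0.05 without PBS replicate 3, and MT-CO1 was not called in either case. MT-CO2 was 2142, 1533 and 1273 CPM in PBS and 1561 to 3126 CPM in treated libraries (log2 difference 0.43, SE 0.21, adjusted p 0.111). MT-CO3 was 1502, 1173 and 949 CPM in PBS and 1391 to 2838 CPM in treated libraries and was called (log2 fold change 0.70, SE 0.21, adjusted p 0.0172). In complex V, MT-ATP6, the proton channel subunit, was 860 to 1341 CPM in PBS and 1394 to 2679 CPM in treated libraries (log2 difference 0.77, SE 0.21, adjusted p 0.00860). MT-ATP8 was 116 to 179 CPM in PBS and 162 to 299 CPM in treated libraries (log2 difference 0.62, SE 0.20, adjusted p 0.0239). MT-ATP8 shares 46 of its bases (22.2%) with MT-ATP6, so the counts of this pair are uncertain where reads fall in the overlap. Every treated library was above every PBS library for 5 of the 13 chrM genes (MT-ND1, MT-ND2, MT-ND3, MT-CYB and MT-ATP6), as for 25.0% of all genes tested.

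**Figure D2:**
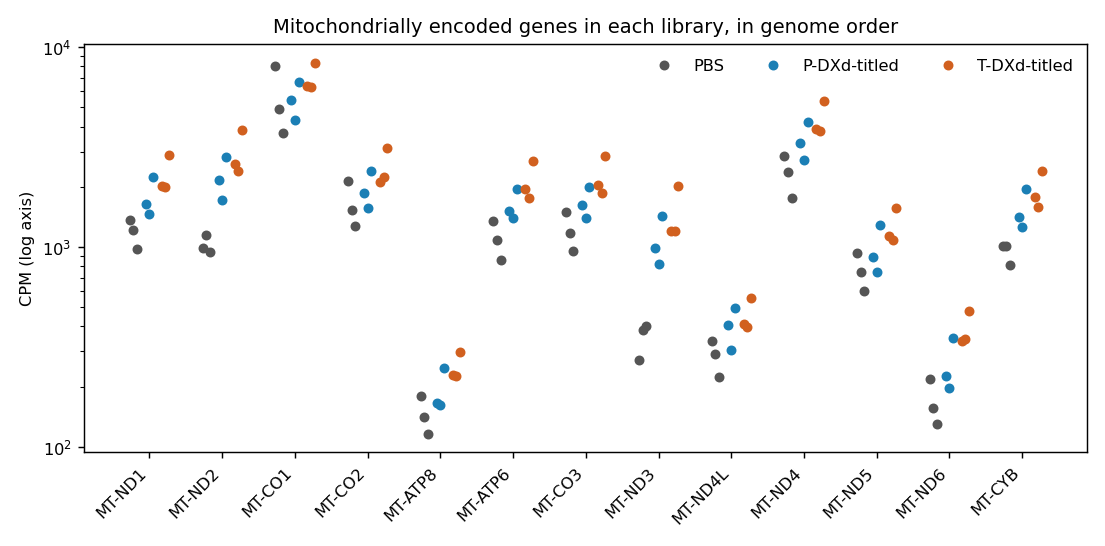
CPM of the 13 chrM genes in each of the 9 libraries (log axis), in the order of the genes along chrM, with 1 point per library coloured by group. MT-ND2 and MT-ND3 show a gap between PBS and treated libraries, whereas for MT-CO1 the highest PBS library, at 8049 CPM, lies among the treated libraries.

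The balance among chrM transcripts also differed. MT-CO1 made up 38.0%, 30.3% and 29.1% of chrM counts in PBS libraries and 23.0% to 25.2% in treated libraries. MT-CO2 likewise made up 9.50% to 10.1% in PBS and 8.11% to 8.90% in treated libraries. MT-ND3 rose from 1.28% to 3.15% of chrM counts in PBS to 4.56% to 5.52% in treated libraries, and MT-ND2 from 4.68% to 7.37% in PBS to 9.50% to 10.5%. PBS replicate 1 stood at the far end of the PBS range in each of these cases. MT-ND3 over MT-CO1 was 0.0338, 0.0781 and 0.108 in PBS replicates 1 to 3 and 0.181 to 0.240 in treated libraries, so the groups did not overlap with or without PBS replicate 1. Per kilobase of gene length, MT-ND3 was the 7th most abundant of the 13 chrM genes in PBS (1017 ± 202 CPM per kb, SD, n = 3). It was the 2nd most abundant in P-DXd-titled (3128 ± 914 CPM per kb) and T-DXd-titled xenografts (4252 ± 1349 CPM per kb), where its spread overlapped with that of the neighbouring genes in the order, MT-CO1 and MT-CO2. MT-CO1 was the most abundant per kilobase in all 3 groups (3600 ± 1453, 3550 ± 759 and 4550 ± 756 CPM per kb), and MT-ND5 and MT-ND6 were the least abundant pair in each.

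The change was also set beside the form of the gene end. The 6 chrM genes with an incomplete final codon (MT-ND1, MT-ND2, MT-ND3, MT-ND4, MT-CO3 and MT-CYB) had log2 fold changes of 0.70 to 1.86 for all treated libraries, with a median of 0.83. The 7 genes with a complete final codon had log2 fold changes of 0.17 to 0.94, with a median of 0.60, and 5 of these lay below all 6 genes of the other class. MT-ND6 and MT-ATP6 were the exceptions. By title, 4 of the 7 genes with a complete final codon lay below all 6 others in P-DXd-titled xenografts and 5 in T-DXd-titled xenografts. Under the P-DXd title the classes overlapped, with complete codons up to 0.63 and incomplete codons from 0.48. This division was noticed after the values were seen and was given no test, since neighbouring genes share precursors and read overlaps.

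**Figure D3:**
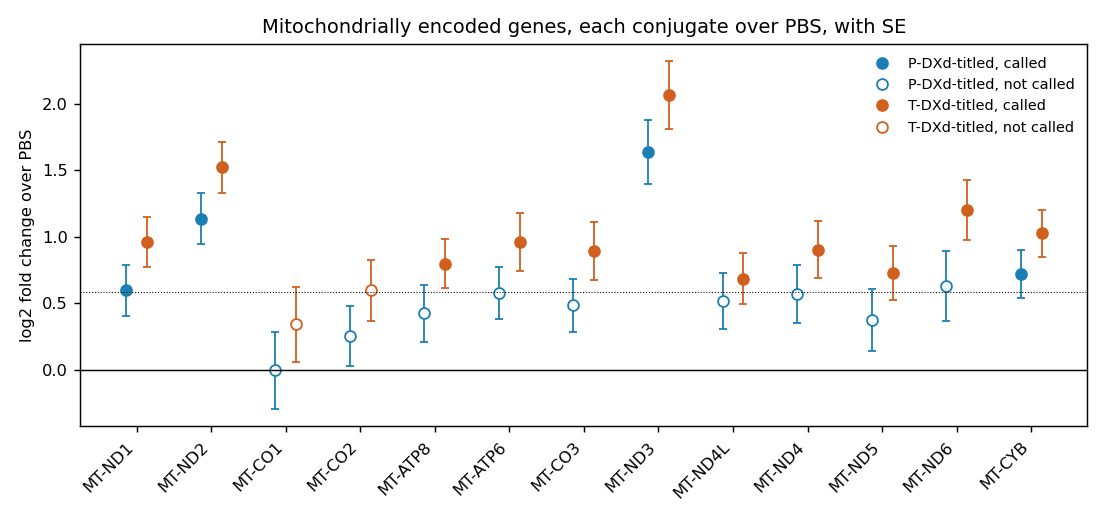
Fitted log2 fold change over PBS, with SE, of the 13 chrM genes by title of the treated group, in genome order; filled points were called and the dotted line marks 1.5-fold. MT-ND2 and MT-ND3 have the highest values in both groups, and the P-DXd-titled value is below the T-DXd-titled value for all 13 genes.

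When P-DXd-titled were compared directly with T-DXd-titled xenografts, 0 chrM genes and 0 nuclear members were called by edgeR or by DESeq2, where 0.0273% of 14653 genes tested were called. All 13 chrM genes had a lower level in P-DXd-titled xenografts, with log2 fold changes of -0.18 (MT-ND4L) to -0.58 (MT-ND6) and a median of -0.37. An unadjusted p under 0.05 was reached by 5 of 13 chrM genes and 1 of 80 nuclear members, where 3.69% of all genes reached it. Each adjusted p was 1.00. The chrM genes rise and fall together between libraries, so these 13 values do not count as independent. Nuclear members had a median log2 fold change of -0.01 in this comparison.

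Nuclear complex I genes had a median log2 fold change of 0.07 over 38 members tested for all treated libraries. NDUFV2 (ENSG00000178127.8), an iron-sulfur subunit of the NADH-binding arm, was called lower, at 1.45, 0.858 and 0.561 CPM in PBS and 0.183 to 0.289 CPM in treated libraries (log2 difference -1.99, SE 0.32, adjusted p 0.000452). NDUFA13 (ENSG00000186010.14), an accessory subunit also known as GRIM-19, was 1.96, 1.39 and 1.01 CPM in PBS and 0.259 to 0.673 CPM in treated libraries (-1.56, SE 0.35, adjusted p 0.00322). NDUFA4L2 (ENSG00000185633.6), a hypoxia-induced relative of NDUFA4, was 0.250, 0.515 and 0.926 CPM in PBS and 1.38 to 1.98 CPM in treated libraries (1.49, SE 0.36, adjusted p 0.00510). None of these 3 genes had overlapping groups, as for 25.0% (above PBS) and 25.5% (below PBS) of all genes tested. All 3 were called in all 16 alternatives of this comparison. Their levels were far below the median of 83.4 CPM over the PBS means of the 84 nuclear members, and NDUFV2 rested on 12 to 21 counts per treated library. Only 9 of the 84 members had a PBS mean under 2 CPM. In GENCODE v44, 28.4% of the exonic bases of NDUFV2 and 21.0% of those of NDUFA13 also belong to another gene, and the share of their reads lost to such overlaps was not tested. NDUFA4 itself was 194 to 232 CPM in PBS and 216 to 263 CPM in treated libraries (0.22, SE 0.08, adjusted p 0.0419).

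NDUFB7, an accessory subunit of the membrane arm, was 82.2 to 85.3 CPM in PBS and 111 to 137 CPM in treated libraries. All treated libraries were above PBS, as for 25.0% of all genes tested. Its log2 fold change was 0.57 (SE 0.07, adjusted p 0.000126) for all treated libraries, just under 1.5-fold, and 0.59 in T-DXd-titled xenografts, where it was called. Without the fold change minimum, 10 of 38 nuclear complex I genes were higher and 4 lower by an adjusted p of 0.05, where 27.0% of all genes were higher and 28.7% lower. NDUFC2 was among those higher (log2 fold change 0.40, SE 0.07) and NDUFV1, the flavin-bearing subunit, among those lower (-0.33, SE 0.09).

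Complex II genes encode the flavoprotein SDHA, the iron-sulfur subunit SDHB and the membrane anchors SDHC and SDHD, which are also enzymes of the tricarboxylic acid cycle. SDHA was 182, 164 and 152 CPM in PBS, 146, 132 and 145 CPM in P-DXd-titled and 136, 143 and 147 CPM in T-DXd-titled libraries. SDHB was 98.8, 81.8 and 75.3 CPM in PBS, 66.6, 69.9 and 68.5 CPM in P-DXd-titled and 63.7, 72.3 and 70.1 CPM in T-DXd-titled libraries. SDHD was 121, 90.5 and 85.6 CPM in PBS, 83.6, 70.3 and 68.0 CPM in P-DXd-titled and 74.7, 77.8 and 74.7 CPM in T-DXd-titled libraries. Every treated library was thus below every PBS library for these 3 genes, as for 25.5% of all genes tested, with log2 fold changes of -0.23 (SE 0.07, adjusted p 0.0196), -0.32 (SE 0.09, adjusted p 0.00913) and -0.40 (SE 0.11, adjusted p 0.00917), all smaller than 1.5-fold. SDHC was 120, 121 and 130 CPM in PBS, 141, 133 and 142 CPM in P-DXd-titled and 127, 136 and 144 CPM in T-DXd-titled libraries (0.15, SE 0.06, adjusted p 0.0698). None of the 4 passed an adjusted p of 0.05 in either treated group alone. PBS replicate 1 was the highest PBS library for SDHA, SDHB and SDHD. Over the 16 alternatives for all treated libraries, log2 fold changes ran from -0.29 to -0.13 (SDHA), -0.40 to -0.19 (SDHB) and -0.50 to -0.21 (SDHD). The highest adjusted p among these alternatives was 0.0900 for SDHA, 0.0244 for SDHB and 0.0301 for SDHD.

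No nuclear gene of complex III or IV was called in any comparison. In complex III, 4 of 8 nuclear genes were lower and 2 higher by an adjusted p of 0.05 with no fold change minimum, where 28.7% of all genes were lower and 27.0% higher. Those lower were the core proteins UQCRC1 (log2 fold change -0.26, SE 0.07) and UQCRC2 (-0.34, SE 0.10), the Rieske iron-sulfur protein UQCRFS1 (-0.39, SE 0.08) and the hinge protein UQCRH (-0.36, SE 0.12). Those higher were the small subunits UQCRQ (0.35, SE 0.08) and UQCR11 (0.38, SE 0.10). For each of these 6 genes the treated libraries did not overlap with PBS, as for 25.0% (above) and 25.5% (below) of all genes. UQCRC1, for example, was 357 to 436 CPM in PBS and 309 to 342 CPM in treated libraries. PBS replicate 1 was the highest PBS library for each of the 4 lower genes. UQCRH, for example, was 134, 90.0 and 91.6 CPM in PBS replicates 1 to 3.

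In complex IV, isoforms used in different tissues were compared by level. COX4I1 was 453, 329 and 326 CPM in PBS and 352 to 407 CPM in treated libraries (0.04, SE 0.10, adjusted p 0.766), and its partner COX4I2 was not analysed here. COX6B1 was 91.2 to 98.2 CPM in PBS and 94.2 to 115 CPM in treated libraries, and the testis isoform COX6B2 was 2.08 to 4.21 and 2.102 to 3.52 CPM. COX7A2, the widely expressed isoform, was 85.5 to 118 CPM in PBS and 98.9 to 121 CPM in treated libraries. COX7A1, the heart and muscle isoform, was at 0.164 CPM or less in every library, 0.0367 CPM in P-DXd-titled replicate 2. It passed the filter on low counts only in P-DXd-titled against PBS (log2 fold change -1.66, SE 0.83, adjusted p 0.157). COX6A1 (101 to 133 CPM over all libraries), COX7B (78.1 to 105 CPM) and COX8A (80.6 to 115 CPM) each had overlapping groups, and COX6A2, COX7B2 and COX8C were not analysed here. COX5B (0.24, SE 0.07), COX6B1 (0.20, SE 0.08) and COX7A2L (0.25, SE 0.08), an organizer of supercomplexes, were higher by an adjusted p of 0.05, and 0 of 13 complex IV genes were lower (background 27.0% and 28.7%).

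The 3 genes of the ATP synthase c ring, which encode the same mature protein behind different import signals, did not move together. ATP5G1 (ENSG00000159199.9) was 94.7, 64.6 and 56.5 CPM in PBS, 42.0, 48.6 and 46.9 CPM in P-DXd-titled and 43.96, 45.6 and 47.4 CPM in T-DXd-titled libraries, without overlap, and was called lower (log2 fold change -0.65, SE 0.13, adjusted p 0.00194). Without PBS replicate 1 its log2 fold change was -0.40 and it was no longer called. ATP5G2 was 89.0, 87.2 and 97.2 CPM in PBS, 106, 121 and 122 CPM in P-DXd-titled and 108, 116 and 132 CPM in T-DXd-titled libraries, without overlap and below 1.5-fold (0.37, SE 0.08, adjusted p 0.00345). ATP5G3 was 300, 242 and 248 CPM in PBS and 214 to 252 CPM in treated libraries other than P-DXd-titled replicate 2, the library rich in muscle RNA, where it was 356 CPM (-0.05, SE 0.15, adjusted p 0.775). The ratio of ATP5G1 to ATP5G2 fell from 1.06, 0.741 and 0.581 in PBS replicates 1 to 3 to 0.358 to 0.407 in treated libraries. ATP5B, the catalytic beta subunit, was 1010, 792 and 745 CPM in PBS and 610 to 666 CPM in treated libraries other than P-DXd-titled replicate 2, at 841 CPM (-0.35, SE 0.12, adjusted p 0.0338). Without a fold change minimum, 4 of 18 complex V genes were higher and 4 lower, beside 27.0% and 28.7% of all genes. Treated libraries were all above PBS for 25.0% of all genes tested and all below for 25.5%.

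**Figure D4:**
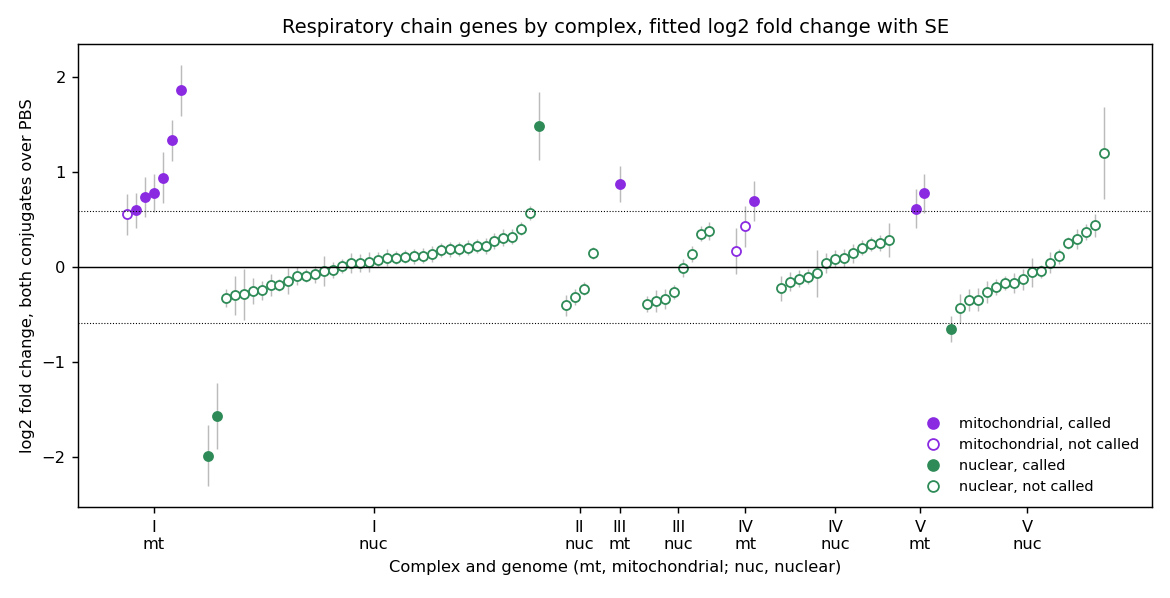
Fitted log2 fold change with SE of each member tested, all 6 treated libraries over PBS, by complex and genome and sorted by value within each; filled points were called and dotted lines mark 1.5-fold. The 10 called chrM genes lie above the upper line, while all but 4 of the 81 nuclear members tested are open points, most of them between the lines.

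Over all complexes, 19 nuclear members were higher and 15 lower by an adjusted p of 0.05 with no fold change minimum, where 27.0% of all genes were higher and 28.7% lower. Treated libraries were all above PBS for 12 of 81 nuclear members tested and all below for 13, where 25.0% and 25.5% of all genes were. The direction went with transcript length. The median length of the GENCODE canonical transcript was 632 bases for the 19 that were higher and 1595 bases for the 15 that were lower. Across the 81 nuclear members tested, which share the same libraries, Spearman's rho between log2 fold change and length was -0.28, and across 14814 genes with a length it was -0.08. The part of length in the nuclear differences was not tested.

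The machinery that copies and transcribes mitochondrial DNA is encoded by the nucleus, and its genes were examined as a list of 18 tested genes. In treated against PBS xenografts, 7 were called lower and 0 higher, where 17.1% of all genes were called lower and 15.2% higher, and the median log2 fold change was -0.52. POLG2, the accessory subunit of mitochondrial DNA polymerase, was 25.8, 19.6 and 16.2 CPM in PBS and 8.06 to 10.9 CPM in treated libraries (log2 difference -1.13, SE 0.14). RNASEH1, which removes RNA from RNA-DNA hybrids, was 37.8 to 41.5 CPM in PBS and 19.9 to 25.4 CPM in treated libraries (-0.84, SE 0.08). TOP1MT, the mitochondrial topoisomerase I, was 108, 100 and 87.3 CPM in PBS, 60.8, 65.8 and 51.0 CPM in P-DXd-titled and 54.5, 53.6 and 53.7 CPM in T-DXd-titled libraries. All treated libraries were below PBS, as for 25.5% of all genes tested, and the log2 fold change was -0.80 (SE 0.09, adjusted p 6.69e-05). TFAM, which packages mitochondrial DNA and starts its transcription, was 295, 178 and 161 CPM in PBS, 150, 130 and 119 CPM in P-DXd-titled and 136, 136 and 126 CPM in T-DXd-titled libraries (-0.67, SE 0.16, adjusted p 0.00508). POLRMT, the mitochondrial RNA polymerase, was 53.6 to 60.9 CPM in PBS and 51.1 to 57.8 CPM in treated libraries (-0.08, SE 0.07, adjusted p 0.357). By group, 6 of 18 were called lower under the P-DXd title (median -0.44, background 13.8% lower) and 9 of 18 under the T-DXd title (median -0.56, background 15.5% lower).

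**Figure D5:**
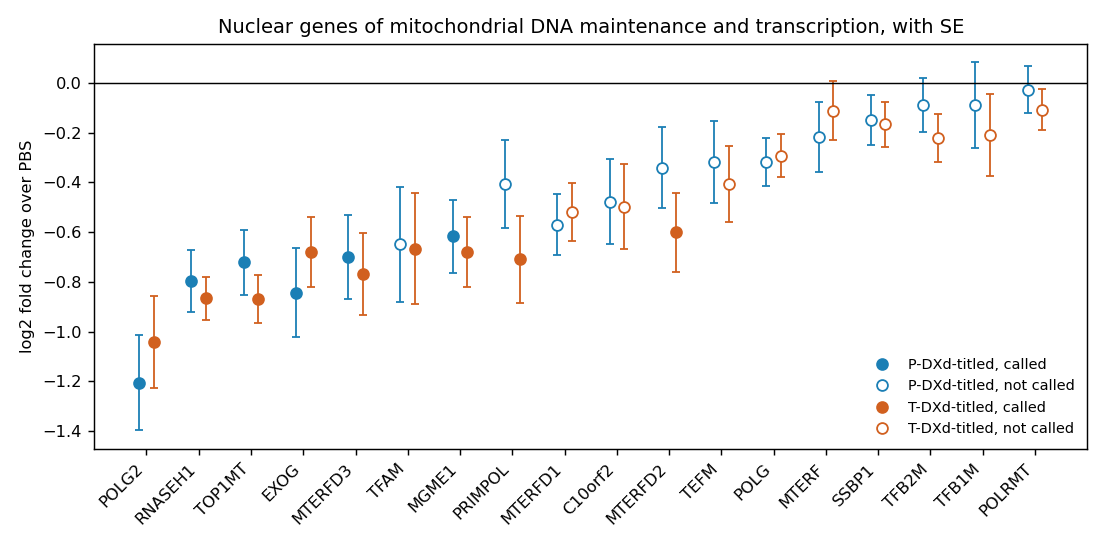
Fitted log2 fold change over PBS, with SE, of 18 nuclear genes of mitochondrial DNA maintenance and transcription by title of the treated group, sorted by the value for all treated libraries; filled points were called. All points lie below 0, from POLG2 on the left to POLRMT on the right.

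Other lists around the chain were counted the same way in treated against PBS xenografts, against the same background of 15.2% called higher and 17.1% called lower. Of these lists, the share called lower exceeded the background for electron carriers and other dehydrogenases (8 of 22). It was near or below the background for the other lists, among them biogenesis regulators (2 of 10). No list exceeded the background among genes called higher. Of 24 genes of mitochondrial RNA processing and stability, 1 was called higher and 4 lower (median log2 fold change -0.20). FASTKD1, a regulator of MT-ND3 mRNA, was lower (-1.04, SE 0.11), as was its family member FASTKD3 (-0.94, SE 0.16). FASTKD1 was 27.6 to 36.1 CPM in PBS and 13.4 to 17.5 CPM in treated libraries, and any link to the level of MT-ND3 was not tested. LRPPRC and SLIRP, which bind and stabilise mitochondrial mRNAs, were at -0.26 (SE 0.07) and -0.58 (SE 0.20) and were not called. Of 22 electron carrier, dehydrogenase and ubiquinone synthesis genes, 8 were called lower and 1 higher (median -0.14). Cytochrome c (CYCS) was 536, 378 and 362 CPM in PBS and 206 to 250 CPM in treated libraries (-0.94, SE 0.12), and PDSS1, of ubiquinone synthesis, was at -1.24 (SE 0.16), while proline dehydrogenase (PRODH), at 1.93 CPM or less in every library, was at 0.99 (SE 0.28). Of 14 complex I assembly factors, 1 was called higher and 2 lower (median -0.17), with FOXRED1 at -0.92 (SE 0.14) and NDUFAF3 at 0.62 (SE 0.09). Of 31 assembly factors of the other complexes, 1 was called higher and 2 lower (median 0.07), among them BCS1L at -0.85 (SE 0.15) and LYRM7 at -0.77 (SE 0.15), which both serve the insertion of the Rieske protein into complex III.

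Of 10 regulators of mitochondrial biogenesis, 2 were called lower and 1 higher (median 0.02). PPARGC1B was 4.87 to 11.8 CPM in PBS and 2.02 to 2.88 CPM in treated libraries (-1.70, SE 0.24). PPARGC1A, a coactivator abundant in muscle, was 0.0356 to 0.0795 CPM in PBS, 2.90 CPM in P-DXd-titled replicate 2 and 0.106 to 0.441 CPM in the other treated libraries (fitted log2 fold change 3.55, SE 1.098). Of 18 tricarboxylic acid cycle and pyruvate dehydrogenase genes, 1 was called lower, PDHA1 at -0.74 (SE 0.10), and 0 higher (median -0.14). Of 75 mitochondrial ribosomal proteins, 1 was called higher and 4 lower (median -0.19), with MRPS24 at 0.81 (SE 0.15) and MRPL38 at -1.16 (SE 0.23). Of 84 cytosolic ribosomal proteins, 2 were called higher and 2 lower (median -0.06), with the largest changes among called genes in RPL36A (-1.75, SE 0.26) and RPL10L (1.32, SE 0.48), both of which have near copies in the genome. Of 26 genes of protein import and cristae, 2 were called higher and 3 lower (median -0.27), with TOMM40 at -0.78 (SE 0.13) and MINOS1 at 0.78 (SE 0.16).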

How the data were processed

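Per the methods of the study, which are stated for its RNA-Seq in general, reads were trimmed (Cutadapt), aligned to GRCh38 (STAR) and counted per gene (featureCounts) by the authors. Tumor RNA had been made into TruSeq mRNA libraries. The deposited tables hold raw counts per gene, 1 table for each treated group with the same 3 PBS libraries in both, and 0 columns of per-sample values were left unused. Listed nuclear coordinates are from an older build that the tables do not name and are not printed. Neither the removal of mouse reads nor strand is stated.

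Differential expression was tested on the deposited counts with edgeR 4.0.16 in R 4.3.3 (TMM, filterByExpr, two-sided quasi-likelihood F test). Genes were called at a Benjamini-Hochberg adjusted p at or below 0.05 over all genes tested and a fold change of at least 1.5. Each group was compared with PBS, and with the other, in a fit of 6 libraries, and all treated libraries with PBS in a fit of 9. Levels are CPM at TMM-adjusted sizes. Where nothing states separate animals, p-values measure the spread between these libraries. Of 84 nuclear members, 3 did not pass the filter in the fit of 9 libraries. Alternatives were RLE factors, library sizes from nuclear genes, total counts, DESeq2 1.42.0, no filter, no fold change minimum, a joint fit, a replicate block and leaving out each library; leaving out PBS replicate 1 with P-DXd-titled replicate 2 was added after seeing the data. Named were the chrM genes, complex II, isoform pairs, called members and up to 2 called genes per list with the largest change, plus TOP1MT, TFAM and POLRMT; other genes were named after their values were seen. The members and gene lists were chosen with earlier results of these data known. The fitting code was tested on simulated data.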

Additional observations from a re-analysis of the deposited data

How the results depend on the processing

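The excess of the chrM over the nuclear median log2 fold change kept its direction in every alternative run. Leaving out 1 library at a time, it ranged from 0.28 to 0.67 for P-DXd-titled and 0.72 to 1.00 for T-DXd-titled xenografts against PBS. For P-DXd-titled against T-DXd-titled xenografts it ranged from -0.57 to -0.21. For all treated libraries against PBS it ranged from 0.61 to 0.86. The 0.86 came from leaving out both PBS replicate 1 and P-DXd-titled replicate 2. The log2 ratio of the mean chrM share in treated over PBS libraries was 0.63 and ranged from 0.48 to 0.81 without 1 library, and it was 0.69 as a ratio to nuclear subunit counts. The number of chrM genes called ranged from 2 to 10 for P-DXd-titled, 6 to 13 for T-DXd-titled and 6 to 12 for all treated libraries without 1 library, and the number of nuclear members from 0 to 4, 0 to 5 and 4 to 5. Without a fold change minimum, 10, 16 and 34 nuclear members passed. With a replicate block on the first digit of the animal code, 3, 10 and 8 chrM genes and 3, 1 and 5 nuclear members were called. Correlations of deviations from group means ran from -0.10 to 0.20 between same-digit libraries. Between libraries of different digits they ran from -0.21 to 0.16. These ranges overlapped, and the digits were not taken as pairs. Direct comparison of the treated groups gave 0 calls of members in every alternative. MT-CO1 in P-DXd-titled xenografts changed sign, from -0.0047 to 0.0026 with no filter, 0.019 with the block, 0.36 without PBS replicate 1 and 0.15 without P-DXd-titled replicate 2 (-0.24 to 0.36 without 1 library), and in all treated libraries to -0.050 without PBS replicate 3. ATP5G3 in P-DXd-titled xenografts went from 0.05 to -0.022, -0.0034 and -0.20 without PBS replicate 2, PBS replicate 3 or P-DXd-titled replicate 2 (-0.20 to 0.18 without 1 library), and in all treated libraries from -0.05 to 0.058 without PBS replicate 1 (-0.18 to 0.058 without 1 library). The causes were not tested. With 3 libraries a group, members below about 1 CPM rest on few counts, which limits the precision of their fold changes.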
